A study of Mus musculus with 36 samples.

Results

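The change in RNA between 30 and 60 min of lipopolysaccharide (LPS) was measured in mouse bone marrow-derived macrophages carrying the D310N form of Tnip2. It compares the 3 D310N libraries of 60 min with the 3 D310N libraries of 30 min, which are 6 of the 36 libraries of the series. All genes with a log2 value of at least 3.32 in 3 or more of the 36 libraries were tested, 11659 of the 16416 kept. The question was which early transcripts still rose over this interval and which already fell.

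The groups used were D310N cells at 60, 30 and 0 min, with 120 min for the next interval, and wild-type (WT) cells at 60, 30 and 0 min. All LPS groups had been given 100 ng/ml, and the 0 min groups were unstimulated. Bone marrow cells of both genotypes had been grown for 7 days with L929 cell supernatant, a source of the macrophage growth factor M-CSF. Each group held 3 libraries, and the labels give neither the age nor the strain of the mice, nor whether the libraries of a group came from separate mice or cultures. The p-values therefore measure the spread between these libraries, which may be technical. The sample titles write D310N and the table header D309N, and the titles are followed here.

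LPS is sensed by Toll-like receptor 4, which activates NF-kB and the MAP kinases. Tnip2 encodes ABIN-2, which binds ubiquitin and stabilises the kinase Tpl2 (gene Map3k8), the link from LPS to ERK in macrophages. Immediate early genes are transcribed from ready promoters without new protein synthesis and many give short-lived RNAs, so that their level can pass its peak while slower targets are still accumulating. Among the first products are inhibitors of the response itself, such as MAP kinase phosphatases, IkB proteins and RNA-binding proteins that speed the decay of cytokine RNAs.

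Sequences of promoters and of a microRNA encoded in a rising transcript are given for some of the genes described below. In the promoters only exact matches to a few motif patterns were marked. A variant that departs from its pattern stays unmarked, so an unmarked window does not show that a motif is absent. All are from RefSeq (GRCm38.p6), and the windows ran from 250 bases before to 50 bases after the annotated start. Fos (chr12:85473640-85473939, plus strand) was the early transcript with the second largest fall, and Lif (chr11:4257318-4257617, plus strand) the one with the largest rise. Capitals in both windows mark, from the left, an NF-kB site and a TATAAA box in Fos, and a TGANTCA match (AP-1) and an NF-kB site in Lif.
Fos: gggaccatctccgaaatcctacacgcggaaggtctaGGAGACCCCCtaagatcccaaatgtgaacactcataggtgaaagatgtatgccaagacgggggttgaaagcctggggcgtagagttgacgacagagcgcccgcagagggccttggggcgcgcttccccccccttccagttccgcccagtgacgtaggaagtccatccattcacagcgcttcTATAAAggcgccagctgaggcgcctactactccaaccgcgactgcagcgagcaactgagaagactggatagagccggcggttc
Lif: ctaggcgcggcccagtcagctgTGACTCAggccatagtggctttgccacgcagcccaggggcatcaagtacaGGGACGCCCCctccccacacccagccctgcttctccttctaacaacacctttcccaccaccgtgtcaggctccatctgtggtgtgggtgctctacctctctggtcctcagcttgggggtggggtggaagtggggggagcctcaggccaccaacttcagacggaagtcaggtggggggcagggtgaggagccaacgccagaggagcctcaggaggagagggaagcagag

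The cyclic AMP response element TGACGTCA, bound by CREB and ATF proteins, was found in the windows of 5 early transcripts that fell, 3 that rose and 1 that was not called (Dusp8). The element of each that fell or rose is shown with 16 bases on both sides, the element in capitals, and the genes that fell come first. The stretches lie at chr1:134079298-134079337 (Btg2, minus strand), chr3:65958244-65958283 (Ccnl1, minus), chr17:26508592-26508631 (Dusp1, minus), chr13:110394966-110395005 (Plk2, plus), chr7:45526257-45526296 (Ppp1r15a, minus), chr4:150855003-150855042 (Errfi1, plus), chr15:79347475-79347514 (Maff, plus) and chr7:30422339-30422378 (Nfkbid, plus).
Btg2: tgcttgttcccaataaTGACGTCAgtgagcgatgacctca
Ccnl1: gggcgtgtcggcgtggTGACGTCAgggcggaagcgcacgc
Dusp1: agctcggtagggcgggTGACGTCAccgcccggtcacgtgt
Plk2: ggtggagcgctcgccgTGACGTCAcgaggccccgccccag
Ppp1r15a: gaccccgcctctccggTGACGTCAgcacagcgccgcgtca
Errfi1: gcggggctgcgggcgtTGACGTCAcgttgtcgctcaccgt
Maff: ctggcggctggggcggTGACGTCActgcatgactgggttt
Nfkbid: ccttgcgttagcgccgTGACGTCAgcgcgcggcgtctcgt

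The cells carried macrophage RNA throughout. All 8 macrophage markers passed the filter, and their summed level on the linear scale was 219000 to 235000 at 60 min and 209000 to 223000 at 30 min. The sum over T and NK cell markers was 127 to 169 at 60 min and 125 to 160 at 30 min, and over neutrophil markers 36.5 to 40.6 at 60 min and 26.1 to 32.5 at 30 min. For B cell markers it was 24.4 to 31.2 at 60 min and 25.1 to 27.4 at 30 min, and for fibroblast markers 43.6 to 51.3 at 60 min and 32.5 to 52.5 at 30 min. The list of erythroid, megakaryocyte and mast cell markers had the highest sum of the lists other than macrophages, 1000 to 1300 at 60 min and 975 to 1180 at 30 min. Its 1 tested member was Pf4, a platelet chemokine, whose step of 0.09 did not pass (limma, adjusted p = 0.498). Of these markers Lck rose by 0.39, S100a9 by 0.80 and Pdgfrb by 0.49 on the log2 scale (limma, adjusted p = 0.0169, 0.000908 and 0.0159), and their part in the results was not tested. These 3 genes had log2 values between 2.66 and 4.66 in the 6 libraries. The Lck call was lost without D310N replicate 2 of 60 min or replicate 3 of 30 min, and the Pdgfrb call without replicate 1 of 60 min or replicate 2 of 30 min. In such bulk RNA, fewer cells of a type and less RNA per cell cannot be told apart. Library medians were 7.05 to 7.07 at 60 min and 7.13 to 7.15 at 30 min on the log2 scale. The ribosomal RNA precursor Rn45s had 15.97, 14.68 and 14.94 at 60 min, against 14.73, 15.10 and 18.89 at 30 min. Leaving out the high D310N library, replicate 3 of 30 min, changed no count given below by over 1.5 times. WT replicate 3 of 30 min was higher still in Rn45s, against 15.11 and 14.88 in the other WT libraries of 30 min. Without it, 3 genes instead of 6 differed in step between genotypes. The count was also 3 without WT replicate 2 of 30 min, which was not high in Rn45s. The choice of early transcripts was not tested without either library.

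Between 30 and 60 min 3710 of 11659 genes (31.8%) changed in D310N cells, by limma with Benjamini-Hochberg adjustment at a threshold of 0.05. They comprised 1979 that rose (17.0%) and 1731 that fell (14.8%). Most changes were small, with a median of 0.34 among genes that rose and -0.41 among genes that fell on the log2 scale. Rises by over 1, which is a doubling, outnumbered falls of that size, 311 against 135, and 49 genes rose and 5 fell by over 2. In WT cells 3924 genes (33.7%) changed over the same interval. The split into rises and falls depended on scaling, since 53.3% of the D310N calls were rises on the values as deposited and 39.8% after quantile normalisation.

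Early transcripts were taken from WT libraries, which have no part in the D310N step: genes called and at least 1 higher on the log2 scale at 30 min than at 0 min. WT cells had 558 genes called higher at 30 min (4.79%), and 82 of them reached that size, 0.703% of the genes tested. Of these 82, 49 were still rising in D310N cells between 30 and 60 min, 22 had begun to fall, and 11 did not pass the test in either direction. The shares of 59.8% rising and 26.8% falling compare with the 17.0% and 14.8% of all genes tested. The median step over the 82 was 0.52, beside 0.01 over all genes.

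**Figure D1:**
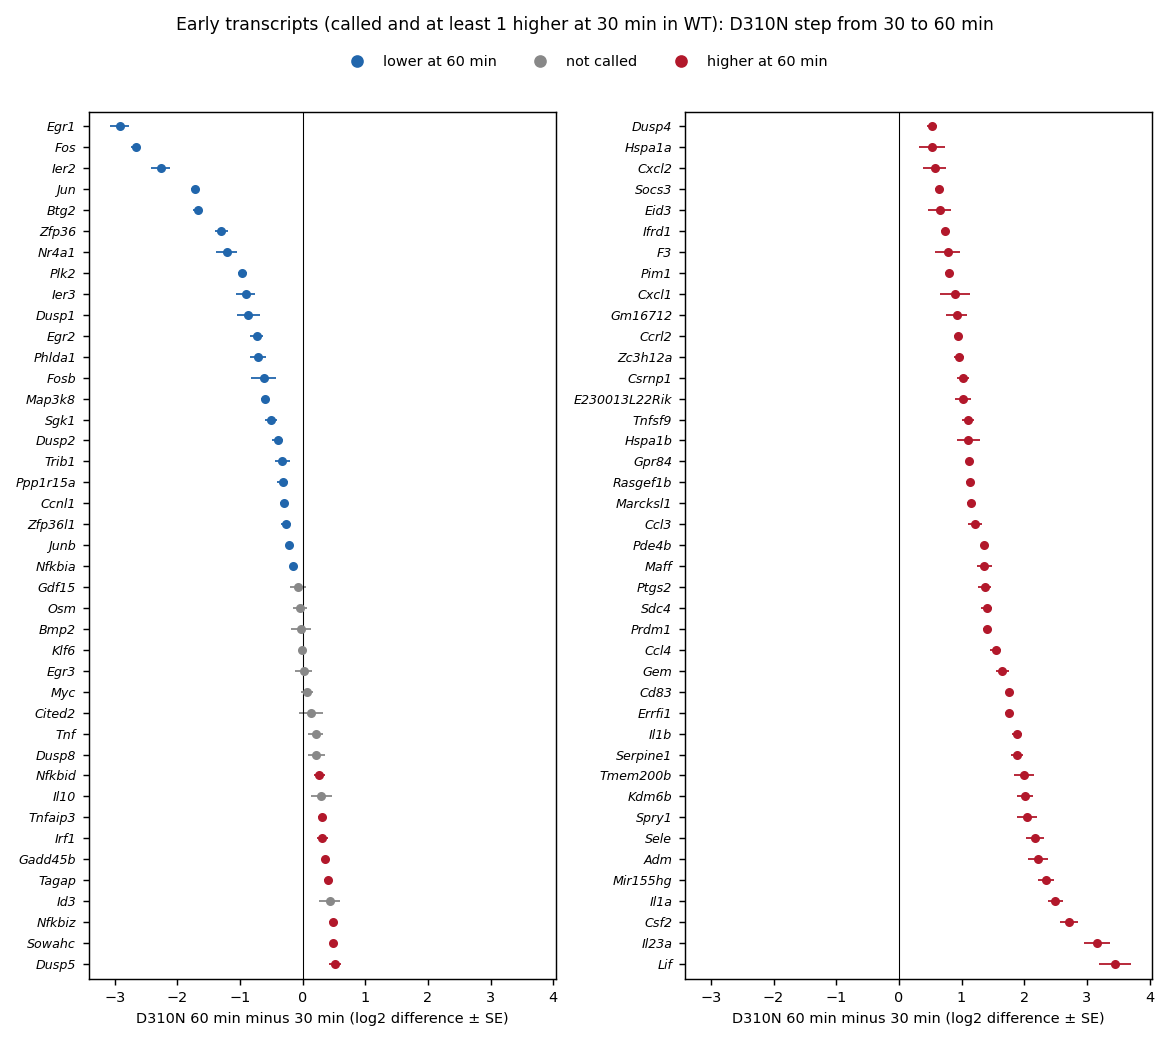
Step of the 82 early transcripts in D310N cells, as the log2 difference of 60 min minus 30 min with bars of 1 SE, genes ordered by it over 2 panels and coloured as lower, not called or higher. The genes extend from Egr1 at -2.92 to Lif at 3.45.

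The 22 falling early transcripts included transcription factors and regulators that limit the response, with a median step of -0.72. Egr1, an immediate early zinc finger factor, had the largest fall. Its log2 values were 10.37, 10.52 and 10.42 at 60 min, against 13.27, 13.38 and 13.43 at 30 min. All 60 min libraries thus lay far below all 30 min libraries, and the difference of -2.92 ± 0.16 (SE, adjusted p = 3.28e-16) is a 7.57-fold fall. Egr1 at 60 min was still 1.97 above its own mean at 0 min, where its libraries stood at 8.15, 8.06 and 9.20.

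Fos, the partner of Jun in AP-1 (chromosome 12, 85473890 to 85477273), had log2 values of 10.43, 10.57 and 10.48 at 60 min, against 13.10, 13.24 and 13.16 at 30 min. The groups did not overlap and the fall was 2.67 ± 0.07 on the log2 scale (adjusted p = 4.31e-24). Jun itself (chromosome 4, 95049034 to 95052222) stood at 10.48, 10.56 and 10.41 at 60 min, against 12.21, 12.24 and 12.16 at 30 min. Both ended below where they began: relative to 0 min, Fos was at -0.18 (adjusted p = 0.0422) and Jun at -0.34 (adjusted p = 4.13e-05) at 60 min, after 2.49 and 1.38 at 30 min. The other 20 falling transcripts were all called above 0 min at 60 min, as 21.3% of all genes were.

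Ier2, another immediate early product, had values of 9.77, 9.75 and 9.64 at 60 min, against 11.92, 12.08 and 11.96 at 30 min, a fall of 2.27. Nr4a1, an orphan nuclear receptor, had 8.47, 8.82 and 8.59 at 60 min, against 9.64, 10.12 and 9.75 at 30 min, a fall of 1.21 ± 0.17 (adjusted p = 7.89e-07). No library of 60 min reached any of 30 min in either gene. The smaller falls among factors of these families were Egr2 (-0.74), Fosb (-0.62) and Junb (-0.21).

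Regulators of RNA decay and of MAP kinases were found among both the falling and the rising early transcripts, and those that fell are given here. Zfp36 encodes tristetraprolin, which binds AU-rich elements and promotes the decay of cytokine RNAs. It had 13.13, 13.21 and 13.06 at 60 min, against 14.40, 14.44 and 14.47 at 30 min, a non-overlapping fall of 1.30 ± 0.11 (adjusted p = 1.20e-11). Btg2, an activator of mRNA deadenylation (chromosome 1, 134075170 to 134079120), fell by 1.68 ± 0.07, with 11.02, 11.06 and 11.06 at 60 min and 12.68, 12.78 and 12.72 at 30 min. Dusp1, the phosphatase of p38 and JNK, had 13.27, 13.33 and 13.27 at 60 min and 14.15, 14.19 and 14.14 at 30 min, and fell by 0.87 ± 0.19 (adjusted p = 0.000338). Dusp2 fell by 0.40.

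Map3k8, which encodes the Tpl2 kinase that ABIN-2 stabilises, was among the early transcripts that fell. Its log2 values were 8.98, 9.0 and 9.15 at 60 min, against 9.60, 9.71 and 9.64 at 30 min, without overlap (-0.61 ± 0.05, adjusted p = 2.27e-11). Relative to 0 min it was 1.23 higher at 30 min and 0.63 higher at 60 min. Between 60 and 120 min it then rose by 1.44, and with Dusp2 (0.31) it was 1 of 2 falling transcripts that were called higher over the next interval. The remaining falling transcripts comprised 16 that were called lower from 60 to 120 min, where 27.0% of all genes were, and 4 not called. That interval shares its 60 min libraries with the step.

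The falling set ended with transcripts that had barely left their level of 30 min. Nfkbia, the IkB inhibitor that retains NF-kB in the cytoplasm, fell by 0.16 (adjusted p = 0.0133), a call that was lost without replicate 2 of 60 min. Ppp1r15a, which directs the phosphatase of eIF2 alpha, fell by 0.32, and the cyclin Ccnl1 by 0.30. Plk2, a polo-like kinase, fell more, to 12.86, 12.71 and 12.87 at 60 min, against 13.82, 13.70 and 13.82 at 30 min (-0.97 ± 0.07).

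The 49 early transcripts still rising had a median step of 1.12 and were led by secreted factors. Lif, a cytokine of the interleukin-6 family (chromosome 11, 4257557 to 4272514), had log2 values of 7.90, 7.79 and 7.82 at 60 min, against 4.18, 4.35 and 4.65 at 30 min. The libraries lay far apart, and the rise of 3.45 ± 0.25 (adjusted p = 7.30e-13) is 10.9-fold. Il23a, the p19 subunit of interleukin-23, had 8.58, 8.27 and 8.66 at 60 min and 5.29, 5.19 and 5.54 at 30 min (3.16 ± 0.20). Csf2, which encodes GM-CSF, had 8.20, 8.17 and 8.19 at 60 min, against 5.67, 5.28 and 5.47 at 30 min (2.71 ± 0.15).

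The interleukin-1 genes were well induced by 30 min and rose further. Il1a (chromosome 2, 129299610 to 129309972) had 12.77, 12.63 and 12.89 at 60 min, against 10.32, 10.16 and 10.32 at 30 min, and Il1b had 14.97, 14.92 and 14.98 against 13.04, 13.08 and 13.08. The groups did not overlap in either gene, with rises of 2.5 ± 0.12 and 1.89 ± 0.07. Relative to 0 min, Il1a was 1.47 higher at 30 min and 3.96 higher at 60 min. Tnf behaved otherwise: it was 3.25 above 0 min at 30 min and 3.46 above at 60 min, and its step of 0.21 ± 0.12 did not pass (adjusted p = 0.229). Its values were 15.63, 15.49 and 15.54 at 60 min, against 15.37, 15.33 and 15.34 at 30 min.

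Mir155hg, the host transcript of microRNA-155 (chromosome 16, 84703167 to 84715245), rose by 2.35 ± 0.13 (adjusted p = 3.41e-16). Its values were 9.63, 9.62 and 9.71 at 60 min, against 7.03, 7.32 and 7.55 at 30 min, and the D310N step was larger than the WT step of 1.73 by 0.62 ± 0.18, which did not pass over all genes (adjusted p = 0.641). Both mature products lie within this gene, at bases 84714143 to 84714165 and 84714182 to 84714202, and are shown with the seed, bases 2 to 8, in capitals, since the seed selects the targets. The libraries measured the host RNA and not the mature forms.
mmu-miR-155-5p: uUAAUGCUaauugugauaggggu
mmu-miR-155-3p: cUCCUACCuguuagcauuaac

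Other rising early transcripts differed in function. Sele, the adhesion molecule E-selectin, had 8.48, 8.38 and 8.57 at 60 min, against 6.31, 6.19 and 6.41 at 30 min (2.17 ± 0.15). Adm, which encodes the peptide hormone adrenomedullin, rose by 2.22, and Spry1, an inhibitor of ERK signalling, by 2.04. Kdm6b, a demethylase of histone H3 lysine 27, had 11.46, 11.42 and 11.37 at 60 min, against 9.34, 9.22 and 9.66 at 30 min (2.01 ± 0.13). Ptgs2, the inducible cyclooxygenase, rose by 1.37. The smallest rises were those of Nfkbid (0.27), Tnfaip3 (0.31) and Irf1 (0.31).

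Rises to 60 min were often followed by a fall. Between 60 and 120 min 30 of the 49 were called lower and 10 higher, while 27.0% and 27.8% of all genes were, again with shared 60 min libraries. Dusp5, a nuclear phosphatase of ERK, rose by 0.52 to 60 min and then fell by 2.92, and Kdm6b fell by 2.38. Csf2 fell by 1.40 and Lif by 1.17 after 60 min. Ccl3 and Ccl4, chemokines that attract monocytes and T cells, rose in both intervals, by 1.21 and 1.55 up to 60 min and by 1.02 and 1.13 after it.

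The 11 early transcripts without a called step were Gdf15, Osm, Bmp2, Klf6, Egr3, Myc, Cited2, Tnf, Dusp8, Il10 and Id3. Egr3 is an example of a level held between the times, with 9.0, 9.47 and 8.99 at 60 min, against 8.90, 9.50 and 9.0 at 30 min, so that the libraries interleaved. Myc had 10.38, 10.56 and 10.42 at 60 min and 10.36, 10.38 and 10.43 at 30 min. Over the next interval Egr3 fell by 2.91 and Myc by 2.10. A p above the threshold does not show that their levels were equal, and the step of Id3 (0.43 ± 0.17, adjusted p = 0.0532) was close to it.

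**Figure D2:**
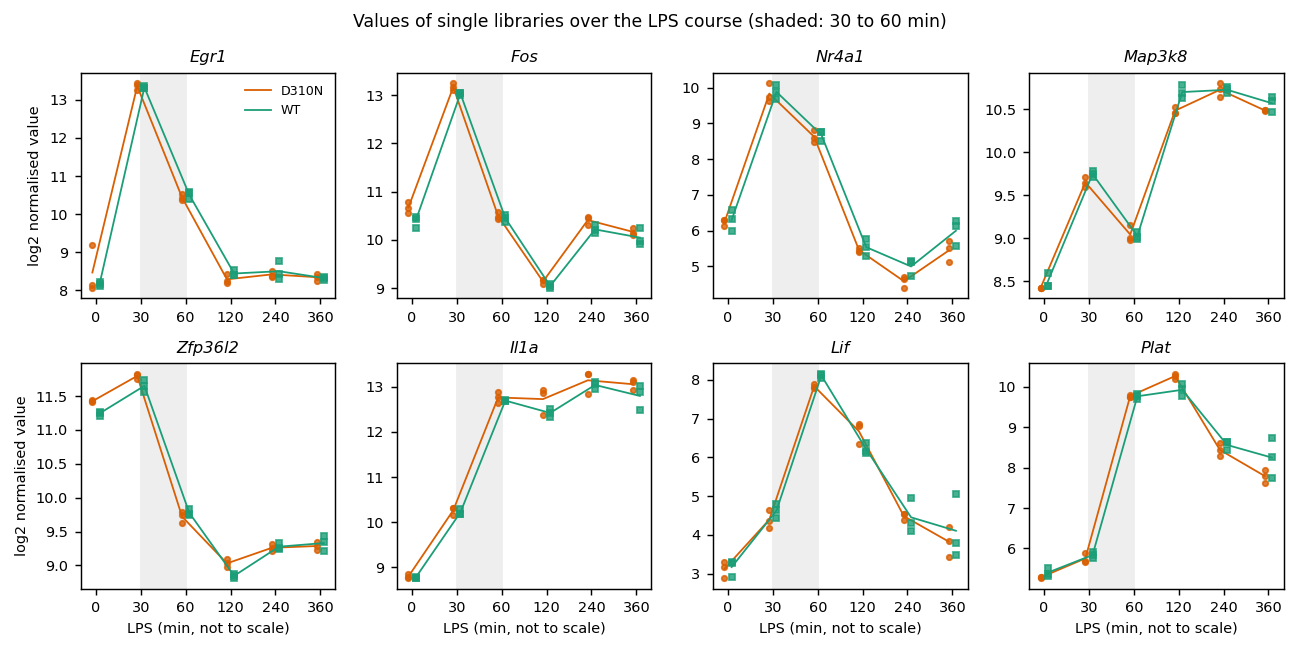
Log2 normalised values of 8 transcripts at 0, 30, 60, 120, 240 and 360 min of LPS, spaced evenly and not to scale, with points for libraries, lines through group means, and D310N and WT in separate colours. From 30 to 60 min Egr1, Fos, Nr4a1, Map3k8 and Zfp36l2 fell in D310N cells, while Il1a, Lif and Plat rose.

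The largest rises overall included genes that had not been early transcripts. Plat, tissue plasminogen activator (chromosome 8, 22757727 to 22782844), had log2 values of 9.76, 9.76 and 9.81 at 60 min, against 5.67, 5.70 and 5.89 at 30 min. With 4.02 ± 0.13 (16.3-fold, adjusted p = 2.27e-21) this was the largest rise among the genes of the naming rule, and 30 min lay 0.47 above 0 min. Ifnb1, interferon beta (chromosome 4, 88522025 to 88522774), had 8.0, 8.18 and 8.10 at 60 min and 4.68, 4.71 and 4.91 at 30 min, a rise of 3.33 ± 0.22. The WT rise of Ifnb1 was 4.08, and the difference of -0.75 ± 0.30 did not pass (adjusted p = 1.00).

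Further rises of this size came from varied functions. Olr1, a receptor for oxidised low-density lipoprotein, rose by 3.40, with 9.79, 9.23 and 9.77 at 60 min and 6.20, 5.88 and 6.50 at 30 min. Ednrb, an endothelin receptor, rose by 3.22, the small GTPase Rnd1 by 3.07, Tpbg by 3.04, the T cell costimulator Tnfsf4 (OX40 ligand) by 2.91 and the AP-1 repressor Jdp2 by 2.75. Non-overlapping libraries were a condition for naming these genes. Among the 10901 genes that were not called and within 0.5 of 0 min at 30 min in WT, 191 rose by over 1 in D310N cells between 30 and 60 min and 110 fell by over 1. Over all 11659 genes tested, 311 rose and 135 fell by over 1.

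Falls of transcripts that were not early included regulators expressed before LPS. Zfp36l2, an RNA-binding relative of tristetraprolin (chromosome 17, 84183931 to 84187947), had 9.63, 9.79 and 9.74 at 60 min, against 11.75, 11.83 and 11.81 at 30 min. This fall of 2.08 ± 0.05 (4.21-fold, adjusted p = 1.97e-24) took it 1.70 below its 0 min level. Arrdc3, an alpha-arrestin that acts in receptor trafficking, fell by 2.08, with 6.93, 7.29 and 7.22 at 60 min and 9.17, 9.42 and 9.08 at 30 min. Fbxo32, a ubiquitin ligase subunit, fell by 1.94, the zinc finger gene Zfp563 by 1.86, Csrnp2 by 1.83 and the lysophosphatidic acid receptor Lpar6 by 1.75.

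Genes already lower at 30 min mostly continued downwards. The WT libraries gave 153 genes called lower at 30 min than at 0 min (1.31% of genes tested). In D310N cells between 30 and 60 min 89 of them fell (58.2%, against 14.8% of all genes), 13 rose and 51 were not called. Their median step was -0.23.

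Lists of inflammatory output had medians above the 0.01 of all genes, of which 17.0% rose and 14.8% fell. Of 20 cytokines tested, 14 rose and 0 fell, with a median of 1.23, and of 18 chemokines 16 rose and 0 fell, with a median of 1.06. Cytokines outside the early set that rose were Il12b (2.51), Csf1 (2.08), Il6 (1.40) and Il27 (1.19). Among chemokines Cxcl3 rose by 2.48, Ccl22 by 2.09 and Ccl5 by 1.67, while Cxcl9 (0.12) and Ccl6 (0.13) did not pass. Of 10 adhesion and costimulatory molecules, 9 rose, with a median of 1.77: Cd40, with 12.32, 12.28 and 12.34 at 60 min and 10.01, 9.97 and 10.06 at 30 min, rose by 2.30, Pvr by 1.94, Icam1 by 1.80 and Vcam1 by 1.79.

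Of 19 NF-kB subunits and inhibitors 16 rose and 1 fell (Nfkbia), with a median of 1.06, beside 17.0% of all genes that rose and 14.8% that fell. Tnip1, which encodes ABIN-1, had 12.65, 12.57 and 12.57 at 60 min, against 10.83, 10.84 and 10.90 at 30 min, and rose by 1.74 ± 0.06. Rel, an NF-kB subunit, rose by 1.69, Nfkbie, an IkB protein, by 1.62, the adaptor Traf1 by 1.39, Tnip3 (ABIN-3) by 1.19 and Nfkb1, the p105 precursor that also binds Tpl2, by 0.69. Tnfaip3, the ubiquitin-editing enzyme A20, which was 2.82 above 0 min at 30 min, rose by 0.31 ± 0.06 (adjusted p = 4.08e-05). Tnip2 itself stood at 9.16, 9.20 and 9.15 at 60 min and 9.08, 9.04 and 9.03 at 30 min, and its step of 0.12 ± 0.06 did not pass (adjusted p = 0.163).

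Lists of regulators were divided. Of 25 immediate early transcription factors 6 rose and 12 fell, with a median of -0.01, where 17.0% of all genes rose and 14.8% fell. The risers were Nr4a3 (2.12), Fosl1 (1.64), Maff (1.37), Bhlhe40 (1.19), Csrnp1 (1.02) and Klf10 (0.42), so that Nr4a3 rose while Nr4a1 fell, and Fosl1 rose while Fos and Fosb fell. Of 13 MAP kinase phosphatases and ERK feedback genes 7 rose and 5 fell. Dusp6, a cytoplasmic phosphatase of ERK, had 8.03, 8.13 and 7.91 at 60 min and 9.65, 9.62 and 9.47 at 30 min and fell by 1.55, and Spry2 fell by 0.96, whereas Dusp14 rose by 1.35 and Dusp16 by 1.23.

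The mRNA decay list of 11 genes had 3 risers and 4 fallers, against shares of 17.0% and 14.8% among all genes. The fallers were Zfp36l2, Btg2, Zfp36 and Zfp36l1 (-0.27). The risers were Zc3h12c (2.56), Zc3h12a (0.96), which encodes the ribonuclease regnase-1, and Btg1 (0.39). Zc3h12c stood at 12.45, 12.56 and 12.52 at 60 min, against 9.92, 9.94 and 10.01 at 30 min. Hence 3 members of the tristetraprolin family were lower at 60 min and 2 members of the regnase family were higher.

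Of 26 genes of Toll-like receptor and Tpl2 signalling 13 rose and 4 fell, with a median of 0.25. Among all genes 17.0% rose and 14.8% fell, so the falls in this list were near the background. Tlr2 rose by 1.59, the kinases Ripk2 and Irak2 by 1.17 and 0.77, and the adaptor Ticam1 by 0.76. Besides Map3k8, the falls were Tlr4 (-0.45), the LPS receptor itself, Tirap (-0.33) and Ripk1 (-0.20). Of 39 type I interferon-stimulated genes 14 rose and 2 fell, with a median of 0.08, against the same 17.0% and 14.8%, and without replicate 1 of 60 min 0 fell. Isg15 (1.44), Oasl1 (1.43) and Gbp5 (1.15) rose, but Ifit2 (0.07) and Ifit3 (0.03) did not pass and then rose by 3.19 and 2.60 in the next hour.

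Among 13 genes of cytokine signalling feedback 9 rose and 1 fell, with Cish at 2.41, Socs1 at 0.86 and Pim1 at 0.79. Of 18 survival and apoptosis genes 7 rose and 4 fell, with a median of 0.05, and the shares over all genes were 17.0% and 14.8%. Bcl2l11, the cell death activator Bim, rose by 1.81, the survival factor Bcl2a1d by 1.58 and Bcl2a1a by 1.36, although reads of the near-identical Bcl2a1 copies may be shared between them. Bmf, another cell death activator, fell by 1.66 and Gadd45g by 1.04. Of 12 prostaglandin and leukotriene genes 3 rose and 0 fell, namely Ptges (1.88), Ptgs2 (1.37) and the receptor gene Ptger2 (0.49).

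Of 18 genes of macrophage identity 3 rose, 4 fell and 11 were not called. These counts lie near the shares of all genes, 17.0% that rose and 14.8% that fell. Those that fell included the transcription factors Cebpa (-0.85), Irf8 (-0.36) and Maf (-0.22). Of 9 chemoattractant receptors 5 rose and 1 fell, Ccrl2 by 0.94 and Fpr2 by 0.88 upwards and Cxcr4 by 1.47 downwards. The count of 5 was 3 without replicate 1 or 3 of 60 min or replicate 2 of 30 min. Of 5 alpha-arrestins tested 3 fell and 0 rose: Arrdc3, Txnip (-1.27), the inhibitor of thioredoxin, and Arrdc2 (-0.63).

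Lists of general cell function had medians of at most 0.09, and 17.0% of all genes rose. Of 10 heat shock genes 4 rose, among them Hspa1b (1.11) and its near-identical copy Hspa1a (0.54), and 0 fell. The Hspa1a call was lost when any of the 6 D310N libraries was left out, and the count of 4 then dropped to as few as 1, without replicate 2 of 30 min. Of 21 cell cycle genes 2 rose, Mki67 (1.03) and Ccnb1 (0.26). Of 13 cytoskeletal targets of the factor SRF 6 rose by at most 0.31, and of 28 ribosomal protein genes 3 rose, with a median of 0.06, while 21 of the 28 rose in the WT step, and the difference of the steps passed in 0. That count of 3 was 0 without replicate 3 of 60 min or replicate 2 of 30 min, 1 without replicate 1 of 60 min and 6 without replicate 2 of 60 min. Of 23 oxidative phosphorylation genes 3 rose by at most 0.15. The Ccnb1 call was lost without replicate 3 of 60 min or replicate 1 or 2 of 30 min, and the count of 3 oxidative phosphorylation genes was 1 without replicate 3 of 60 min. The called rises of Rps6, Rpl7, Rpl10, Atp5a1, Atp5b and Sdha turned into negative values under quantile normalisation, so that their direction depends on scaling.

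**Figure D3:**
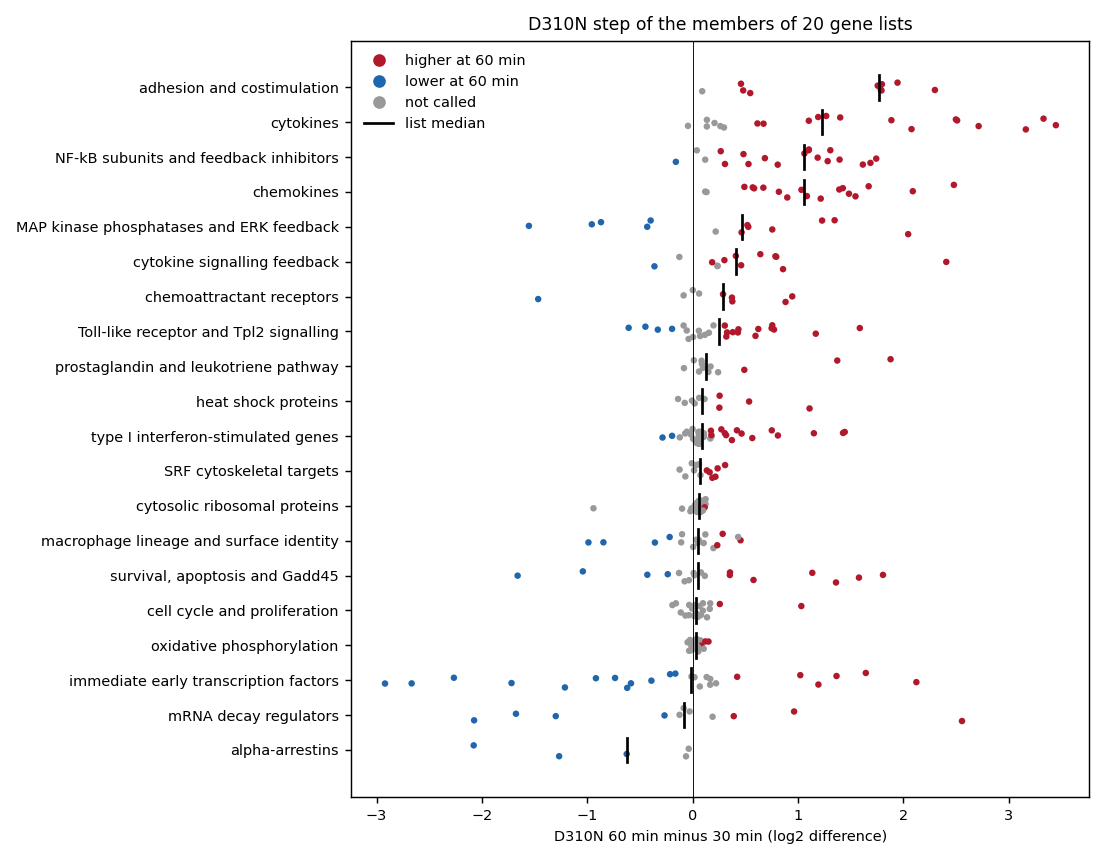
Log2 difference of 60 min minus 30 min in D310N cells for each tested member of 20 gene lists, coloured by whether it was called higher, called lower or not called, with a bar at the list median. The medians extend from 1.77 for adhesion and costimulation to -0.63 for alpha-arrestins.

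The early transcripts were compared with the same step in WT cells, which shares no libraries with the D310N step. Of the 82 early transcripts 50 rose (17.4% of all genes did) and 17 fell (16.3%) in WT. The WT libraries of 30 min also chose the early transcripts, so these WT counts are not independent of that choice. The difference of the steps, D310N minus WT, passed in 0 of the 82, where the lowest was -0.38, the median -0.04 and the highest 0.62. Over all 11659 genes limma called 6 (0.0515%), and 388 had an unadjusted p under 0.05, at a precision of 3 libraries a group. That count of 388 is a smaller share than the 0.05 that would pass this threshold if no gene differed.

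**Figure D4:**
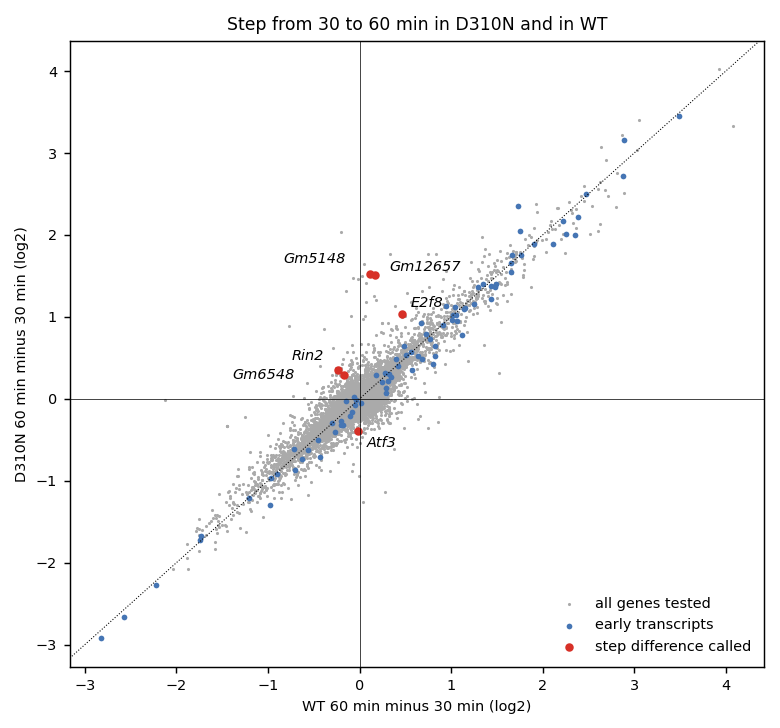
Log2 difference of 60 min minus 30 min in D310N cells (vertical axis) against the same in WT cells (horizontal axis) for 11659 genes, with the 82 early transcripts and the 6 genes called for a different step coloured. Early transcripts lie near the dotted line of equal steps, from Egr1 (-2.92 in D310N, -2.82 in WT) to Lif (3.45 and 3.49).

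The 6 genes with a different step were Rin2, Atf3, Gm5148, Gm12657, Gm6548 and E2f8. Rin2, a Rab5 regulator (chromosome 2, 145675215 to 145887616), had log2 values of 12.80, 12.76 and 12.79 at 60 min and 12.49, 12.38 and 12.44 at 30 min in D310N cells, against 11.75, 11.81 and 11.83 at 60 min and 12.04, 12.02 and 12.02 at 30 min in WT cells. It rose by 0.35 in D310N cells and fell by 0.23 in WT cells, and the difference was 0.58 ± 0.06 (adjusted p = 1.66e-06). The D310N libraries were the higher ones at both times.

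Atf3 encodes a stress-induced factor that represses inflammatory genes (chromosome 1, 191170296 to 191218039). It had 13.30, 13.50 and 13.30 at 60 min and 13.74, 13.81 and 13.73 at 30 min in D310N cells, against 13.82, 13.88 and 13.87 at 60 min and 13.86, 13.86 and 13.89 at 30 min in WT cells. The D310N level thus fell by 0.39 ± 0.04 and the WT step of -0.02 did not pass (adjusted p = 0.815), with a difference of -0.38 ± 0.06 (adjusted p = 0.00294). Before LPS, at 0 min, Atf3 had 13.14, 13.07 and 13.12 in D310N cells and 12.96, 12.95 and 12.97 in WT cells. The D310N libraries were thus the higher ones at 0 min and the lower ones at 30 and 60 min. Atf3 was not an early transcript by the rule, at 0.91 above 0 min at 30 min in WT.

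E2f8, a repressor of cell cycle genes, rose by 1.03 in D310N cells and 0.46 in WT cells. It had 9.42, 9.27 and 9.43 at 60 min and 8.26, 8.30 and 8.47 at 30 min in D310N cells, against 9.50, 9.40 and 9.39 at 60 min and 8.95, 9.0 and 8.96 at 30 min in WT cells, so that the genotypes overlapped at 60 min and were apart at 30 min. The genotypes were already apart at 0 min, with 8.10, 8.06 and 8.23 in D310N cells and 8.77, 8.81 and 8.73 in WT cells. The difference of the steps of 0.57 ± 0.11 (adjusted p = 0.0269) was lost when single libraries were left out.

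Gm5148 and Gm12657, a processed pseudogene, stood apart in D310N cells at 60 min. Gm5148 (chromosome 3, 37714190 to 37724490) had 7.39, 7.46 and 7.42 at 60 min and 6.0, 5.85 and 5.87 at 30 min in D310N cells, against 5.62, 6.19 and 5.91 at 60 min and 6.03, 5.67 and 5.70 at 30 min in WT cells. Its steps differed by 1.41 ± 0.23 (adjusted p = 0.00294) and those of Gm12657 by 1.35 ± 0.23 (adjusted p = 0.00657). Gm6548, another processed pseudogene, rose by 0.29 in D310N cells and fell by 0.17 in WT cells (difference 0.46 ± 0.09, adjusted p = 0.0269). Values of pseudogenes are uncertain, since their reads can be shared with other copies.

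**Figure D5:**
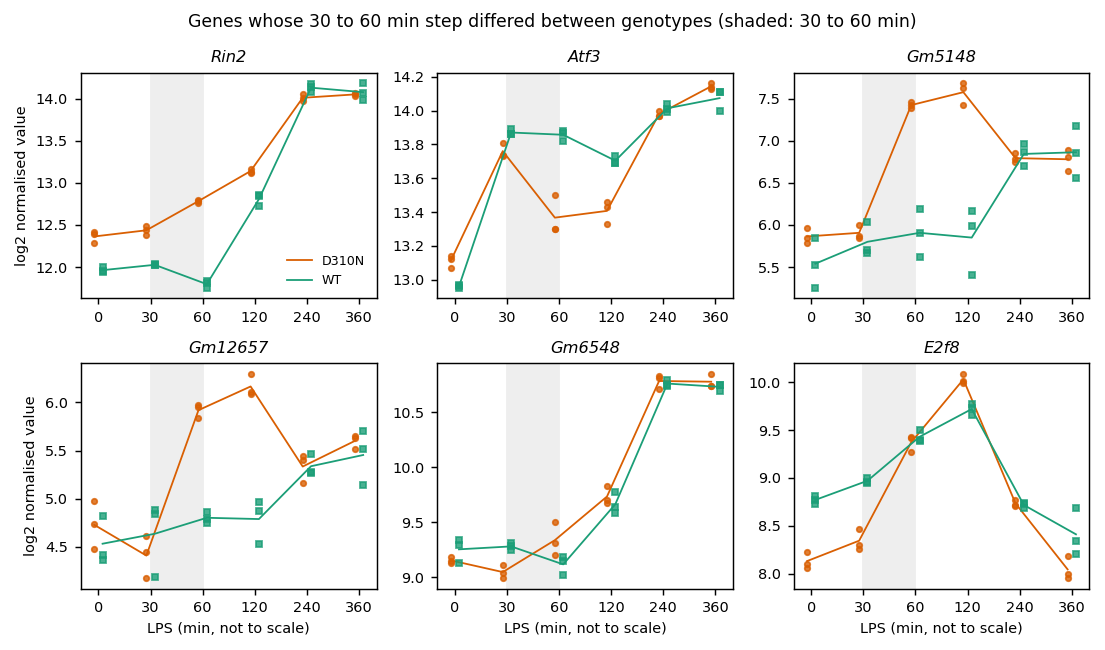
Log2 normalised values of the 6 genes with a different step at 0 to 360 min of LPS (times not to scale), with points for libraries, lines for group means and the interval from 30 to 60 min shaded. Rin2 rose in D310N cells (0.35) and fell in WT cells (-0.23) within the shaded interval, and Atf3 fell by 0.39 in D310N cells.

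Promoter windows were matched for 17 of the 22 falling and 39 of the 49 rising early transcripts, and for 8999 of the 11659 genes. The falling transcripts without a window were Egr1, Ier2, Phlda1, Map3k8 and Trib1, so their motifs were not examined. The element TGACGTCA, which reads the same on both strands, was in 5 falling (29.4%) and 3 rising (7.69%) windows, against 3.72% of all windows. An NF-kB site was in 6 falling (35.3%) and 12 rising (30.8%) windows, against 12.3% of all, and the AP-1 motif TGANTCA in 1 (5.88%), namely Zfp36l1, and 7 (17.9%), among them Il1a, Sele and Lif, against 6.23%. TATAAA was in 6 (35.3%) and 7 (17.9%), against 8.52%, and the EGR motif GCGNGGGCG in 5 (29.4%) and 8 (20.5%), against 12.1%. The CArG box, the SRF site, was in 2 falling windows (Egr2 and Zfp36, 11.8%) and 1 rising window (Dusp5, 2.56%), against 1.49% of all. Of the early transcripts without a called step 6 had windows, and that of Dusp8 held TGACGTCA at 2 places. Both strands were searched for exact matches, and sites more than 250 bases before the start were not covered. These shares describe the windows only.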

How the data were processed

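RNA was sequenced in single-end 75 bp reads from 36 libraries, 3 in each of 12 groups of genotype and time. The submitters' processing notes name STAR 2.5.2a, RSEM 1.2.31, DESeq2 1.10.1 and the build mm10. The table deposited by the authors holds log2 values, normalised per library, of 16439 genes. How the log2 values were made is not given in the sources used here, and a transformation that shrinks low values would understate their differences. The depth is unknown, and 3 libraries a group limit the precision. Values are not per length, so levels were compared within genes only.

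The 23 rows whose names had become dates were left out. The log2 values were tested as deposited, with no pseudocount, with limma 3.58.1 in R 4.3.3: 1 mean per group over all 36 libraries (24 residual degrees of freedom), an intensity trend, two-sided p-values and Benjamini-Hochberg adjustment within each comparison over all 11659 genes tested, called under 0.05. Differences are log2 ± standard error with n = 3 per group. The model was tested on simulated data. The members and gene lists were chosen with earlier results of these data known. The naming rule gave Tnip2 and 5 pathway genes, the 10 largest non-overlapping rises and falls (group mean of 50 or more, linear scale, in the higher of the 2 groups), the 8 early transcripts that rose or fell most, up to 4 called members of each list, and the 10 genes with the smallest p for a different step. Other genes were named after their values were seen. Gene positions are on GRCm38 by symbol. Alternatives changed the filter, pseudocount, scaling, libraries fitted, spread model and replicate block, and left out each of the 12 libraries of 30 and 60 min in turn, and WT replicate 1 of 360 min. The other libraries were not left out singly. Motif counts used RefSeq windows from 250 bases before to 50 after the start.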

Additional observations from a re-analysis of the deposited data

Results flagged for a closer look

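Each of the following genes had a step from 30 to 60 min that differed between D310N and WT cells by limma's test of the difference itself. The difference of the steps, D310N minus WT on the log2 scale, was 0.5772 for Rin2 (adjusted p = 1.66e-06), whose step was 0.35 in D310N and -0.23 in WT. For Atf3 it was -0.3756 (adjusted p = 0.00294), with steps of -0.39 in D310N and -0.02 in WT. For Gm5148 it was 1.41 (adjusted p = 0.00294), with steps of 1.52 in D310N and 0.11 in WT.

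For Gm12657 the difference was 1.351 (adjusted p = 0.00657), with steps of 1.52 in D310N and 0.16 in WT. For Gm6548 it was 0.4582 (adjusted p = 0.0269), with steps of 0.29 in D310N and -0.17 in WT. For E2f8 it was 0.572 (adjusted p = 0.0269), with steps of 1.03 in D310N and 0.46 in WT.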

How the results depend on the processing

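The count of genes changed in the D310N step stayed within 1.5 times of the 3710 reported in each alternative run, as did its rises, its falls and the WT count. It was 3170 to 3537 when single D310N libraries were left out and 3992 after quantile normalisation, which gave 1590 rises and 2402 falls instead of 1979 and 1731. The 49 rising and 22 falling early transcripts were 45 to 49 and 19 to 21 without single D310N libraries and became 299 and 102 of 558 with no minimum difference at 30 min. The 6 genes with a different step between genotypes were 12 with no filter on low values, 13 in a fit of only the 12 libraries of 30 and 60 min, 34 with library quality weights, and 10 without WT replicate 1 of 360 min, a library that stands apart and was left out after the data were seen. Without single libraries the count was 3 to 6, and 3 without WT replicate 2 or replicate 3 of 30 min. The calls of Rin2, Atf3 and Gm5148 held in each alternative run. E2f8 and Gm6548 lost theirs without the intensity trend (adjusted p = 0.0587 each), Gm6548 in the fit of the 12 libraries (0.0773), E2f8 without most single libraries (up to 0.151) and Gm6548 likewise (up to 0.183). Gm12657 lost its call without WT replicate 2 or 3 of 30 min (0.0525 and 0.0562).

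Under quantile normalisation the step turned to -0.03983 for Atp5a1, -0.03695 for Atp5b, -0.1011 for Rpl10, -0.08001 for Rpl7, -0.07693 for Rps6 and -0.09413 for Sdha, and ribosomal protein genes had 0 called higher and 17 lower. The cause was not tested. Of 108 named genes with a called step, 17 lost the call with the same sign in at least 1 alternative, among them Tnfaip3 under quantile normalisation. Same-numbered libraries of 60 and 30 min correlated in their deviations by 0.244, 0.391 and 0.0941 in D310N and -0.00885, 0.112 and 0.103 in WT, and the labels do not say that a number marks a shared source. With the replicate number as a block, 3933 genes were called in the D310N step, 3690 of them also without it, and 7 differed in step between genotypes. Depth is unknown, so the counting error of low values could not be given.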

Other observations

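Zinc finger genes with numbered Zfp symbols, a group chosen after the values were seen, were lower together at 60 min. Of 302 tested in D310N cells, 191 fell between 30 and 60 min (63.2%, against 14.8% of all genes) and 26 rose (8.61%, against 17.0%). Falls by over 1 were 38, beside 135 over all 11659 genes, and the median step was -0.43. Many such genes encode KRAB-type DNA-binding repressors. In WT cells 204 of them fell and 21 rose, against 16.3% and 17.4% of all genes. Between 60 and 120 min in D310N cells, 140 rose and 44 fell, with a median of 0.21, against 27.8% and 27.0% of all genes. That interval shares its 60 min libraries with the step. Over the alternatives run, the count of falls was 140 to 202, the lowest with the filter at 50 on the linear scale.

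Smarca5-ps and the antisense transcript 0610039K10Rik were higher in D310N at 60 min in the way of Gm5148. Smarca5-ps had log2 values of 3.71, 3.81 and 3.61 at 60 min and 1.94, 2.11 and 2.69 at 30 min in D310N cells, against 2.55, 2.58 and 2.67 at 60 min and 2.83, 2.62 and 2.40 at 30 min in WT cells. The difference of the steps was 1.47 ± 0.32 for Smarca5-ps and 1.60 ± 0.35 for 0610039K10Rik, and neither passed by limma in the main fit (adjusted p = 0.105 each). Smarca5-ps passed in the fit of the 12 libraries (0.0402) and with library quality weights (0.00563). It also passed without D310N replicate 3 of 30 min (0.0358) or WT replicate 1 of 360 min (0.0328). 0610039K10Rik passed with the weights (0.00807) and without D310N replicate 1 of 60 min (0.03). Strand-specific counting is not stated, so an antisense transcript cannot be told from its partner.

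Otud1, a deubiquitinase gene, had 9.50, 9.53 and 9.55 at 60 min and 9.52, 9.52 and 9.56 at 30 min in D310N cells, against 9.57, 9.48 and 9.49 at 60 min and 8.95, 8.97 and 8.93 at 30 min in WT cells. Among these groups the WT libraries of 30 min were the low ones. At 0 min the values were 9.17, 9.21 and 9.23 in D310N cells and 8.79, 8.63 and 8.66 in WT cells. The genotypes were thus already apart before LPS. The difference of the steps was -0.58 ± 0.12 and did not pass in the main fit (limma, adjusted p = 0.0567). It passed with no filter (0.0408), median centring (0.044), quantile normalisation (0.00875) and the replicate block (0.0358). The adjusted p was 6.97e-05 in the fit of the 12 libraries of 30 and 60 min and 2.04e-06 with library quality weights. Without WT replicate 1 of 360 min it was 1.33e-05. Whether Otud1 is called thus depends on the processing.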
